A study of Mus musculus with 18 samples.

Results

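The 10 genes described here encode the enzymes that make fatty acids from acetyl-CoA and then lengthen and desaturate them: *Acly*, *Acss2*, *Acaca*, *Fasn*, *Elovl6*, *Elovl5*, *Scd1*, *Scd2*, *Fads1* and *Fads2*. They were chosen by name, as enzymes of this pathway and with earlier results of these data known, from the 31053 genes listed in an RNA-Seq count table of mouse BM-derived macrophages. All 10 were found, and all 10 were among the 12290 genes with enough counts to be tested. The macrophages came from 12-week-old C57Bl/6J mice that were either *Slc7a7* LysM-/- (knockout) or *Slc7a7* LysM+/+ (wild type), with 3 mice per genotype. In the knockout, LysM-Cre, which is expressed from the *Lyz2* locus of myeloid cells, deletes *Slc7a7*, a transporter of cationic and large neutral amino acids. The cells of each mouse received PBS vehicle (control), 50 μg/mL acetylated LDL (Ac-LDL) or 100 μg/mL oxidized LDL (Ox-LDL) for 24 h, which gives 6 groups of 3 libraries. The comparisons ask how macrophages respond to modified LDL and whether loss of *Slc7a7* alters that response.

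Fatty acid synthesis starts in the cytosol, where *Acly* cleaves citrate and *Acss2* activates acetate to supply acetyl-CoA. *Acaca* carboxylates acetyl-CoA to malonyl-CoA, *Fasn* assembles both into palmitate, and *Elovl6* lengthens palmitate. *Scd1* and *Scd2* place the first double bond into saturated chains, whereas *Fads2* and *Fads1* act in turn on polyunsaturated chains, with *Elovl5* lengthening the chain between their steps. In macrophages, as in liver, SREBP transcription factors drive most of these genes and are held inactive when cells are rich in sterols, and LXR, which oxysterols activate, raises *Srebf1* and several lipogenic genes. Ac-LDL and Ox-LDL enter macrophages through scavenger receptors and deliver cholesterol, which is how foam cells are made in culture.

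Libraries held between 1043492 and 1768816 counts (median 1466145), so that 3 counts correspond to between 1.67 and 2.85 CPM (the count per 1e6 counts, scaled by the TMM method). The 10 genes together received between 322 and 842 counts per library. *Slc7a7* was at 14.9 ± 5.41 CPM (SD, n = 3) in wild type and 6.58 ± 3.20 CPM in knockout control cells, at 25.3 ± 2.74 against 3.27 ± 1.69 CPM with Ac-LDL and at 28.0 ± 1.81 against 9.91 ± 1.15 CPM with Ox-LDL, without overlap between genotypes. All 10 macrophage markers examined were detected, with a summed level between 12771 and 35997 CPM that includes *Lyz2*, the locus that carries Cre. This sum lay between 21384 and 35997 CPM in wild type libraries. In knockout libraries it lay between 18080 and 21391 CPM in control medium, between 15309 and 17810 CPM with Ac-LDL and between 12771 and 14700 CPM with Ox-LDL. Without *Lyz2* the other 9 markers overlapped between genotypes in every medium (4383 to 7186 against 6054 to 7278 CPM in control, 4296 to 5746 against 5213 to 5858 CPM with Ac-LDL and 3484 to 5842 against 4222 to 5245 CPM with Ox-LDL, wild type against knockout). Within the knockout the sum of these 9 was still lower with each LDL than in control, without overlap, and its part in the results was not tested. Summed markers of adipocytes (7 genes, 2 of them at 0 in every library) lay between 7.48 and 37.6 CPM and of fibroblasts between 0 and 26.9 CPM. Of the adipocyte markers only *Fabp4* had enough counts to be tested. The study reports *Fabp4* in macrophages of adipose tissue, so this sum does not measure adipocytes alone. Summed neutrophil markers lay between 72.9 and 126, 78.9 and 216, and 142 and 252 CPM in wild type cells (control, Ac-LDL and Ox-LDL) and between 52.0 and 141, 25.5 and 64.6, and 62.9 and 114 CPM in knockout cells. They were thus higher with Ox-LDL than in control in wild type cells and lower in knockout than in wild type cells with each LDL, without overlap, and their part in the results was not tested. Markers of dendritic, lymphoid and erythroid cells reached at most 5.20 CPM. In bulk RNA, fewer cells of a type and less RNA per cell cannot be told apart.

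In the GRCm38 annotation (the assembly also called mm10), several of these genes are neighbours. *Fads2* (chr19:10062765-10101746, minus strand) and *Fads1* (chr19:10182888-10196877, plus strand) lie 81.1 kb apart, and *Scd2* (chr19:44293674-44306864, plus strand) and *Scd1* (chr19:44394455-44407879, minus strand) 87.6 kb apart. *Acaca* (chr11:84129672-84401651), *Acly* (chr11:100476353-100528000) and *Fasn* (chr11:120805846-120824547) share chromosome 11 but are megabases apart. *Acss2* is at chr2:155517948-155585724, *Elovl6* at chr3:129532355-129638495 and *Elovl5* at chr9:77917364-77984519. Counts of some genes could be split with related transcripts. For *Acaca*, 33.5% of its 31-base words recur in transcripts of other genes, mainly *Gm5182*. The share was 8.18% and 6.81% for *Scd1* and *Scd2*, mainly *Scd3*, and 6.52% for *Elovl6*, mainly *Gm11295*. For *Acss2* it was 7.57%, with *Gss* the largest partner. The span of *Acss2* overlaps other genes, *Gss* and *Ggt7* on the opposite strand among them, and 927 bases of its exons lie in exons of other genes. *Acly*, *Fasn*, *Elovl5* and *Fads1* had no such shared words, and *Fads2* 0.73%.

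Promoter windows around the transcription start were matched for 7 of the 10 genes in RefSeq (GRCm38.p6), namely *Acss2*, *Elovl6*, *Elovl5*, *Acaca*, *Acly*, *Fasn* and *Fads2*. The window of *Acaca* belongs to a start 65.8 kb inside the gene, so the window at its annotated 5′ end is not among the 7. Those of *Fasn* and *Acly*, which fell in each of the 4 comparisons of LDL with control described below, of *Fads2*, which fell most, and of *Elovl5*, which passed the test in none, are shown 5′ to 3′ on the strand of the gene. Capitals mark the CCAAT box, the motif bound by NF-Y, on either strand (ATTGG is its reverse complement).
Fasn (chr11:120824498-120824797, minus strand): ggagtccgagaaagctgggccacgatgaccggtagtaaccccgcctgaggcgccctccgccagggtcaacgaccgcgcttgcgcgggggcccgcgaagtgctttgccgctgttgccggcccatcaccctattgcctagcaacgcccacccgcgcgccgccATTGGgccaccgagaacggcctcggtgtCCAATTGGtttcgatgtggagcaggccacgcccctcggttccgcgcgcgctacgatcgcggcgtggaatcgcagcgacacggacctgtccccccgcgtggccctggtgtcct
Acly (chr11:100527951-100528250, minus strand): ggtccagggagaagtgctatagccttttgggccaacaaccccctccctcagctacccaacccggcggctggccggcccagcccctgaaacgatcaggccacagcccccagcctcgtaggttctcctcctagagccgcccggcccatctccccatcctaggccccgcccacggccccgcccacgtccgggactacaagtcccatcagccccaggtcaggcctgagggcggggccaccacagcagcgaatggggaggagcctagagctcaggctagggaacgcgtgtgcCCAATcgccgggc
Fads2 (chr19:10101454-10101753, minus strand): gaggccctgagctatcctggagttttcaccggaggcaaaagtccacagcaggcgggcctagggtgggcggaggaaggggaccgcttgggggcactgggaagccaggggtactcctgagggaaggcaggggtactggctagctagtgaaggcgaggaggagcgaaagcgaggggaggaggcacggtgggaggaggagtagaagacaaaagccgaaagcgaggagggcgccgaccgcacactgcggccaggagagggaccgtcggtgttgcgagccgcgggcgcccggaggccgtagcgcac
Elovl5 (chr9:77917115-77917414, plus strand): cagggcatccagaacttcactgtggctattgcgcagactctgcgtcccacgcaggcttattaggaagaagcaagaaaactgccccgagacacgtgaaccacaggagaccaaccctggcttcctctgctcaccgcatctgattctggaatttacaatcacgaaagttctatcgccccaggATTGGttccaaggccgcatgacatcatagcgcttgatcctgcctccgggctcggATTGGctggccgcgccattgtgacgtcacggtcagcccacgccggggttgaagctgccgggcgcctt

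These windows were searched for 4 motifs on both strands. CCAAT was found in 4 of the 7 promoters (*Fasn*, *Acly*, *Acss2* and *Elovl5*), against 37.4% of all 32851 promoters in the table. *Fasn* held 3 matches, of which 2 share bases in CCAATTGG, and *Elovl5* held 2. The GC box GGGCGG was found in 3 of the 7 (*Acss2*, *Acly* and *Fads2*), against 35.7% of all. The sterol regulatory element TCACNCCAC was in 0 of the 7 and in 1.24% of all promoters, and the direct repeat 4 element, the motif bound by LXR, in 0 of the 7 and in 0.0761% of all. These matches are descriptions of the letters in each window. With motifs this rare among all promoters, 0 of the 7 does not show that these genes lack such elements.

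In control cells the 10 genes spanned a wide range. As CPM per kilobase of exon, the only scale on which genes are ranked here, *Acly* was highest in wild type control cells at 28.2 ± 0.525 (SD, n = 3), followed by *Fads1* (15.4 ± 1.35), *Elovl5* (13.9 ± 2.22), *Fasn* (7.85 ± 1.83), *Scd2* (7.60 ± 1.27), *Fads2* (6.01 ± 1.40), *Acaca* (3.27 ± 0.791), *Elovl6* (1.84 ± 0.494), *Acss2* (0.869 ± 0.219) and *Scd1* (0.708 ± 0.311). *Fads1* and *Elovl5*, the 3 genes from *Fasn* to *Fads2*, and *Acss2* and *Scd1* did not differ from their neighbours beyond the spread. The order in knockout control cells was the same. *Scd2* thus had a higher mRNA level than *Scd1*, with 17 to 101 counts per library against 0 to 9 for *Scd1*. Levels of other stearoyl-CoA desaturase genes, such as *Scd3*, were not examined. In every group *Acly* kept the first rank. With Ac-LDL *Fads2* moved from rank 6 to rank 8 in wild type and rank 7 in knockout cells, while *Elovl5* moved from rank 3 to rank 2 in both.

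The summed level of these genes was lower with each LDL in both genotypes, while 2 or 3 of the 10 passed the test in each comparison within a genotype. The sum of the 10 genes was 499 ± 2.36 CPM (SD, n = 3) in wild type control cells, 319 ± 20.6 CPM with Ac-LDL (64.0% of control) and 298 ± 14.7 CPM with Ox-LDL (59.7%). In knockout cells it was 503 ± 35.04 CPM, 339 ± 13.9 CPM (67.4%) and 320 ± 15.9 CPM (63.6%). The lowest control library stood at 466 CPM and the highest LDL library at 348 CPM, so that no LDL library overlapped a control library. The sum is weighted towards abundant genes such as *Acly*.

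**Figure D1:**
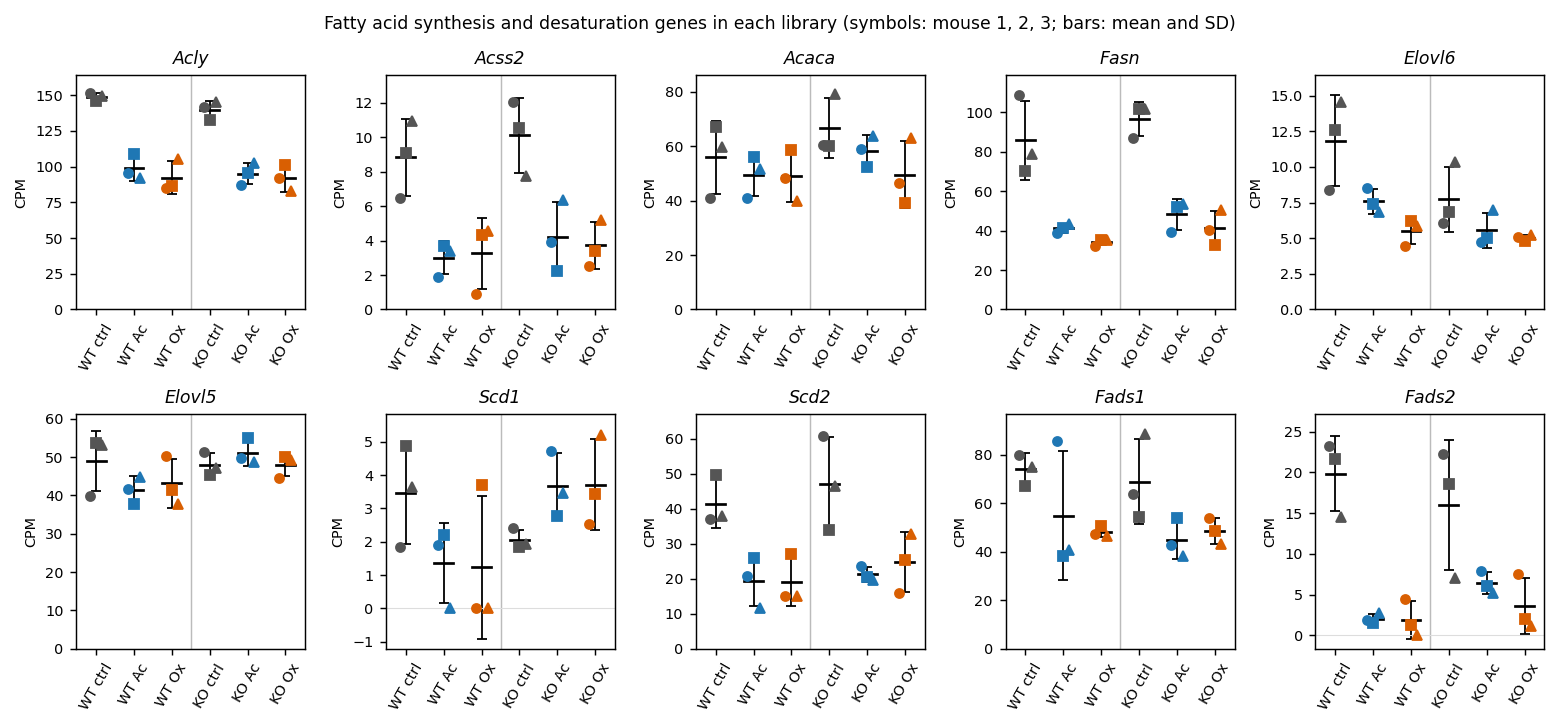
TMM-scaled CPM of each gene (y axis, CPM, 1 panel per gene) in the 6 groups (x axis; WT, wild type; KO, knockout; ctrl, control; Ac, Ac-LDL; Ox, Ox-LDL); symbols are the 3 mice of a genotype, and bars the mean and SD. *Acly*, *Fasn*, *Scd2* and *Acss2* sit lower with either LDL than in control medium in both genotypes, whereas *Elovl5* and *Acaca* overlap.

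With Ac-LDL, 3 of the 10 genes passed the test in wild type cells (*Acly*, *Fasn* and *Fads2*) and 2 in knockout cells (*Acly* and *Fasn*), all lower. Among all 12290 genes tested, 0.407% were called lower in wild type and 0.448% in knockout cells (0.472% and 0.521% in either direction). With Ox-LDL, *Acly*, *Fasn* and *Fads2* fell in wild type and in knockout cells, against 1.07% and 1.66% of all genes called lower (1.34% and 2.32% in either direction). Calls rest on the quasi-likelihood test of edgeR at an adjusted p under 0.05 (Benjamini-Hochberg, across the whole table), which applies to every adjusted p below. All 10 genes had negative log2 fold changes with each LDL in wild type cells and 8 of 10 in knockout cells, where *Elovl5* and *Scd1* were the exceptions, and among all genes 50.5% and 48.9% were negative in wild type and 50.7% and 49.3% in knockout cells. The median log2 fold change of the 10 genes was −0.85 and −1.09 in wild type (Ac-LDL and Ox-LDL) and −0.58 and −0.61 in knockout cells, while the median of all genes lay between −0.005 and 0.008. Averaged over both genotypes, 5 genes passed with Ac-LDL (*Acly*, *Fasn*, *Fads2*, *Scd2* and *Acss2*) and 7 with Ox-LDL (the same 5, *Elovl6* and *Fads1*), all lower, against 1.44% and 3.57% of all genes called lower (2% and 5.39% in either direction). This average shares all its libraries with the comparisons within a genotype, and within a genotype both LDL comparisons share their control libraries.

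**Figure D2:**
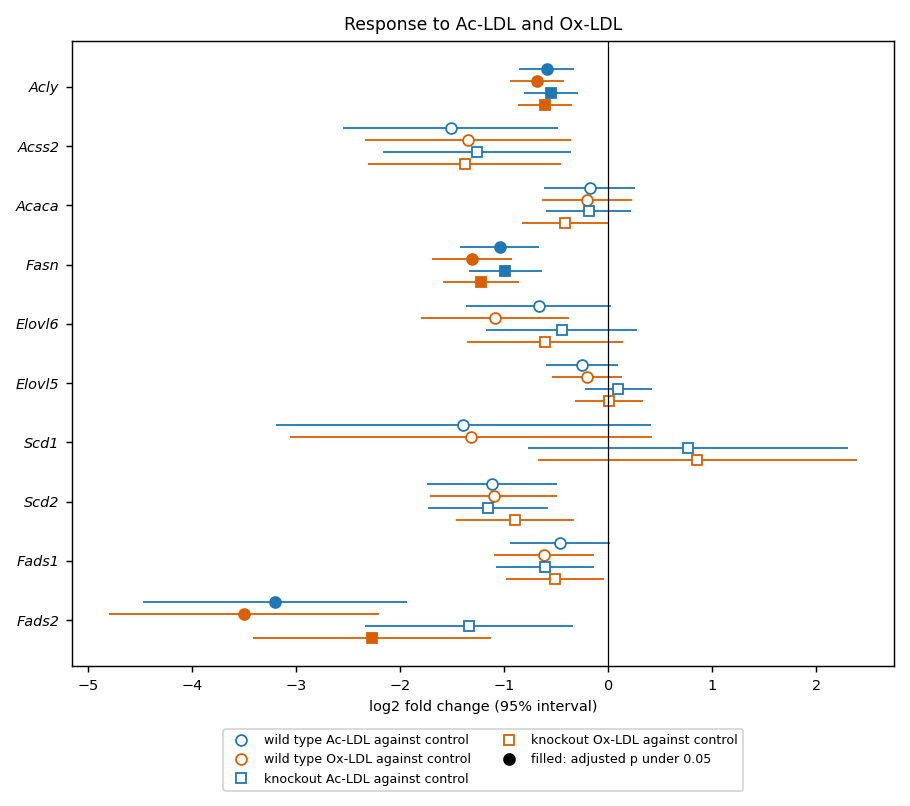
Log2 fold change of each gene against control (x axis) with its 95% interval, for Ac-LDL and Ox-LDL in wild type (circles) and knockout (squares) cells; filled symbols have an adjusted p under 0.05. *Acly* and *Fasn* are filled in all 4 comparisons and *Fads2* in 3, and the intervals of *Elovl5* and *Acaca* span or touch 0.

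Of the genes that supply acetyl-CoA, *Acly* (ENSMUSG00000020917), ATP citrate lyase, was at 151, 146 and 149 CPM in the 3 wild type control libraries. It was at 95.8, 109 and 91.8 CPM with Ac-LDL and at 85.1, 86.4 and 106 CPM with Ox-LDL. The knockout libraries held 142, 132 and 145 CPM in control medium, 87.5, 95.5 and 103 CPM with Ac-LDL and 91.8, 101 and 82.7 CPM with Ox-LDL. All 12 LDL libraries were therefore below all 6 control libraries. In wild type cells the log2 fold change of *Acly* was −0.59 (SE 0.13, adjusted p = 0.0280) with Ac-LDL and −0.68 (SE 0.13, adjusted p = 0.0032) with Ox-LDL. In knockout cells it was −0.55 (SE 0.12, adjusted p = 0.0386) and −0.61 (SE 0.13, adjusted p = 0.0067). *Acly* thus kept about the same fraction of its control level in all 4, from 62.1% to 68.1%. The calls with Ac-LDL were near the threshold: leaving out any of 5 of the 6 wild type libraries compared (all but Ac-LDL replicate 2), or any of the 6 knockout libraries, raised the adjusted p above it (0.0525 to 0.215 and 0.0817 to 0.237), and so did leaving out knockout Ox-LDL replicate 3 with Ox-LDL (0.0842).

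*Acss2* (ENSMUSG00000027605), acetyl-CoA synthetase, gave 1 to 20 counts per library. It was at 6.50, 9.07 and 10.9 CPM in wild type control libraries, at 1.90, 3.69 and 3.40 CPM with Ac-LDL and at 0.90, 4.32 and 4.56 CPM with Ox-LDL. Knockout control libraries held 12.1, 10.5 and 7.74 CPM, those with Ac-LDL 3.94, 2.22 and 6.38 CPM and those with Ox-LDL 2.53, 3.42 and 5.20 CPM. In each genotype both LDL groups lay below control without overlap. The log2 fold changes, from −1.51 to −1.26, did not pass within a genotype (adjusted p from 0.129 to 0.334). Averaged over genotypes they were −1.39 (SE 0.33, adjusted p = 0.0234) with Ac-LDL and −1.37 (SE 0.33, adjusted p = 0.0120) with Ox-LDL. Leaving out wild type control replicate 2 or 3, wild type Ac-LDL replicate 1 or 3, knockout control replicate 1 or 2, or knockout Ac-LDL replicate 2 ended the average call with Ac-LDL (adjusted p from 0.0525 to 0.0935).

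Of the enzymes that build the chain, *Fasn* (ENSMUSG00000025153), fatty acid synthase, fell in all 4 comparisons. Its levels were 109, 70.5 and 78.7 CPM in wild type control libraries, 38.9, 41.4 and 43.5 CPM with Ac-LDL and 32.3, 35.2 and 35.2 CPM with Ox-LDL. In knockout libraries they were 86.8, 102 and 102 CPM in control medium, 39.4, 52.2 and 53.3 CPM with Ac-LDL and 40.4, 32.8 and 50.3 CPM with Ox-LDL. No LDL library reached the lowest control library. The log2 fold changes were −1.04 (SE 0.18, adjusted p = 0.0038) and −1.31 (SE 0.19, adjusted p = 0.000136) in wild type, and −0.99 (SE 0.17, adjusted p = 0.0030) and −1.22 (SE 0.18, adjusted p = 0.000133) in knockout cells, for Ac-LDL and Ox-LDL. *Fasn* retained between 39.8% and 49.9% of its control level.

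*Acaca* (ENSMUSG00000020532), acetyl-CoA carboxylase, whose product *Fasn* uses, was not called with either LDL. Its means were 55.9 ± 13.5, 49.5 ± 7.89 and 48.9 ± 9.44 CPM (SD, n = 3) in wild type cells with control, Ac-LDL and Ox-LDL. In knockout cells they were 66.5 ± 11.04, 58.4 ± 5.83 and 49.4 ± 12.3 CPM. The groups overlapped in all 4 comparisons, with log2 fold changes from −0.41 to −0.18 and adjusted p from 0.409 to 0.937. The lowest bound of the 95% intervals was −0.83 and the highest 0.26.

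Of the elongases, *Elovl6* (ENSMUSG00000041220), which lengthens saturated and monounsaturated chains, was at 8.36, 12.6 and 14.6 CPM in wild type control libraries, at 8.54, 7.39 and 6.80 CPM with Ac-LDL and at 4.48, 6.17 and 5.87 CPM with Ox-LDL. Ox-LDL libraries lay below control without overlap, and Ac-LDL libraries overlapped control. In knockout cells the means were 7.72 ± 2.28, 5.56 ± 1.22 and 5.01 ± 0.209 CPM (SD, n = 3), with the Ox-LDL group again below control. The largest log2 fold change, −1.09 (SE 0.35, adjusted p = 0.165), was with Ox-LDL in wild type cells. Averaged over genotypes *Elovl6* passed with Ox-LDL only just, at −0.85 (SE 0.25, adjusted p = 0.0472). This call was lost by DESeq2 (adjusted p = 0.183) and on leaving out any of 10 of the 12 libraries compared (all but wild type and knockout control replicate 1; adjusted p from 0.0678 to 0.166).

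*Elovl5* (ENSMUSG00000032349), which lengthens polyunsaturated chains, was at similar levels in all 6 groups. It was at 49.0 ± 7.83, 41.4 ± 3.61 and 43.1 ± 6.36 CPM (SD, n = 3) in wild type cells with control, Ac-LDL and Ox-LDL, and at 47.8 ± 3.10, 51.1 ± 3.38 and 47.9 ± 2.87 CPM in knockout cells. Its log2 fold changes were −0.25, −0.21, 0.10 and 0.005, none called (adjusted p from 0.777 to 0.996). The 95% intervals lay between −0.59 and 0.42 in all 4, so that a fall as large as that of *Fasn* (−0.99 or more) was outside each.

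Of the stearoyl-CoA desaturases, *Scd2* (ENSMUSG00000025203) was at 37.1, 49.6 and 37.9 CPM in wild type control libraries, at 20.9, 25.9 and 11.6 CPM with Ac-LDL and at 15.2, 27.2 and 14.998 CPM with Ox-LDL. Knockout control libraries held 60.9, 34.05 and 46.4 CPM, those with Ac-LDL 23.6, 20.5 and 19.7 CPM and those with Ox-LDL 15.997, 25.3 and 33.0 CPM. No LDL library reached the lowest control library of its genotype. Log2 fold changes were −1.12, −1.10, −1.15 and −0.90 (SE 0.27 to 0.30), and none passed within a genotype (adjusted p = 0.135, 0.0691, 0.0661 and 0.0971). Each passed when the mouse was added to the fit as a block (adjusted p = 0.0053, 0.0025, 0.0015 and 0.0077). Averaged over genotypes *Scd2* fell by 1.13 on the log2 scale with Ac-LDL (SE 0.21, adjusted p = 0.0021) and by 0.997 with Ox-LDL (SE 0.20, adjusted p = 0.0026).

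*Scd1* (ENSMUSG00000037071) was close to the limit of counting. Wild type libraries held 1.86, 4.89 and 3.64 CPM in control medium, 1.90, 2.22 and 0 CPM with Ac-LDL and 0, 3.70 and 0 CPM with Ox-LDL. Knockout libraries held 2.41, 1.86 and 1.93 CPM in control medium, 4.73, 2.78 and 3.48 CPM with Ac-LDL and 2.53, 3.42 and 5.20 CPM with Ox-LDL. In knockout cells, unlike in wild type cells, both LDL groups lay above control without overlap (7.32% and 10.1% of all genes did so), although no *Scd1* comparison passed (adjusted p from 0.691 to 0.888). As a ratio of counts summed over 3 libraries, LDL to control was 0.354 (5 and 14 counts, exact 95% interval 0.101 to 1.05) and 0.403 (0.123 to 1.08) in wild type and 1.74 (17 and 10 counts, 0.740 to 4.18) and 1.88 (0.810 to 4.58) in knockout cells. These intervals cover counting error only, and all include 1.

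*Fads2* (ENSMUSG00000024665), the first desaturase of polyunsaturated chains, showed the largest fold change of the 10 genes. It was at 23.2, 21.6 and 14.6 CPM in wild type control libraries, at 1.90, 1.48 and 2.72 CPM with Ac-LDL and at 4.48, 1.23 and 0 CPM with Ox-LDL. Wild type cells thus kept 10.3% and 9.62% of the control mean, at or near the level of 3 counts. Summed over 3 libraries, *Fads2* had 76 counts in control, 8 with Ac-LDL and 7 with Ox-LDL, ratios of 0.105 (exact 95% interval 0.0439 to 0.218, counting error only) and 0.0837 (0.0326 to 0.181). The log2 fold changes were −3.20 (SE 0.61, adjusted p = 0.0090) and −3.50 (SE 0.63, adjusted p = 0.0021). Without wild type Ac-LDL replicate 2 the adjusted p with Ac-LDL was 0.0570.

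In knockout cells *Fads2* was at 22.3, 18.6 and 7.09 CPM in control, at 7.88, 6.11 and 5.22 CPM with Ac-LDL and at 7.58, 2.05 and 1.16 CPM with Ox-LDL. The knockout control library of the third mouse was the lowest of the 6 control libraries and lay within the range of the LDL libraries, so that the groups overlapped. The log2 fold change was −1.34 (SE 0.48, adjusted p = 0.380) with Ac-LDL and −2.27 (SE 0.55, adjusted p = 0.0257) with Ox-LDL. The call with Ox-LDL was lost without knockout control replicate 1 or 2 or knockout Ox-LDL replicate 2 or 3 (adjusted p = 0.158, 0.0974, 0.151 and 0.181).

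*Fads1* (ENSMUSG00000010663), which acts after *Fads2* and is its neighbour on chromosome 19, changed less. Wild type libraries held 79.8, 67.0 and 75.1 CPM in control, 85.4, 38.4 and 40.8 CPM with Ac-LDL and 47.5, 50.6 and 46.3 CPM with Ox-LDL. The Ac-LDL library of the first wild type mouse was higher than every wild type control library. In knockout cells the means were 68.9 ± 17.5, 44.9 ± 8.06 and 48.6 ± 5.26 CPM (SD, n = 3), with both LDL groups below control. Log2 fold changes were from −0.61 to −0.46, and none passed within a genotype (adjusted p from 0.304 to 0.713). Averaged over genotypes *Fads1* fell by 0.56 on the log2 scale with Ox-LDL (SE 0.16, adjusted p = 0.0432). This call was lost on leaving out any of 11 of the 12 libraries (all but knockout control replicate 2; adjusted p from 0.0532 to 0.153). With Ac-LDL the change of −0.54 (SE 0.16, adjusted p = 0.110) passed without wild type Ac-LDL replicate 1 (−0.75, adjusted p = 0.0026) and with the mouse as a block (adjusted p = 0.0089).

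Counted by groups that did not overlap, 5 genes were lower with Ac-LDL in wild type cells (*Acly*, *Acss2*, *Fasn*, *Scd2* and *Fads2*; 5.48% of all genes were lower without overlap). With Ox-LDL there were 7, these 5 with *Elovl6* and *Fads1* (6.17% of all). In knockout cells 5 were lower with Ac-LDL (*Acly*, *Acss2*, *Fasn*, *Scd2* and *Fads1*; 9.37% of all) and 6 with Ox-LDL, these with *Elovl6* (11.6% of all).

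Since the 3 treatments of a mouse share its bone marrow, the change was also read within each mouse. *Acly*, *Acss2*, *Fasn*, *Scd2* and *Fads2* were lower in 6 of 6 mice with each LDL. *Fasn* changed by between −1.45 and −0.75 (log2 CPM) with Ac-LDL and between −1.71 and −0.97 with Ox-LDL, and *Acly* by between −0.69 and −0.42 and between −0.82 and −0.38. *Fads2* changed by between −3.01 and −0.36 with Ac-LDL and between −3.53 and −1.40 with Ox-LDL. With Ac-LDL its 3 wild type mice (−2.91, −3.01 and −1.96) all changed by more than its 3 knockout mice (−1.35, −1.41 and −0.36). *Acaca*, *Elovl6* and *Fads1* were lower in 5 or 6 of 6 mice, and *Elovl5* in 3 of 6 with each LDL. *Scd1* was lower in 2 of 6 mice with Ac-LDL and 3 of 6 with Ox-LDL, all of them wild type. These counts of mice are descriptions only, since the share over all genes is not given here.

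**Figure D3:**
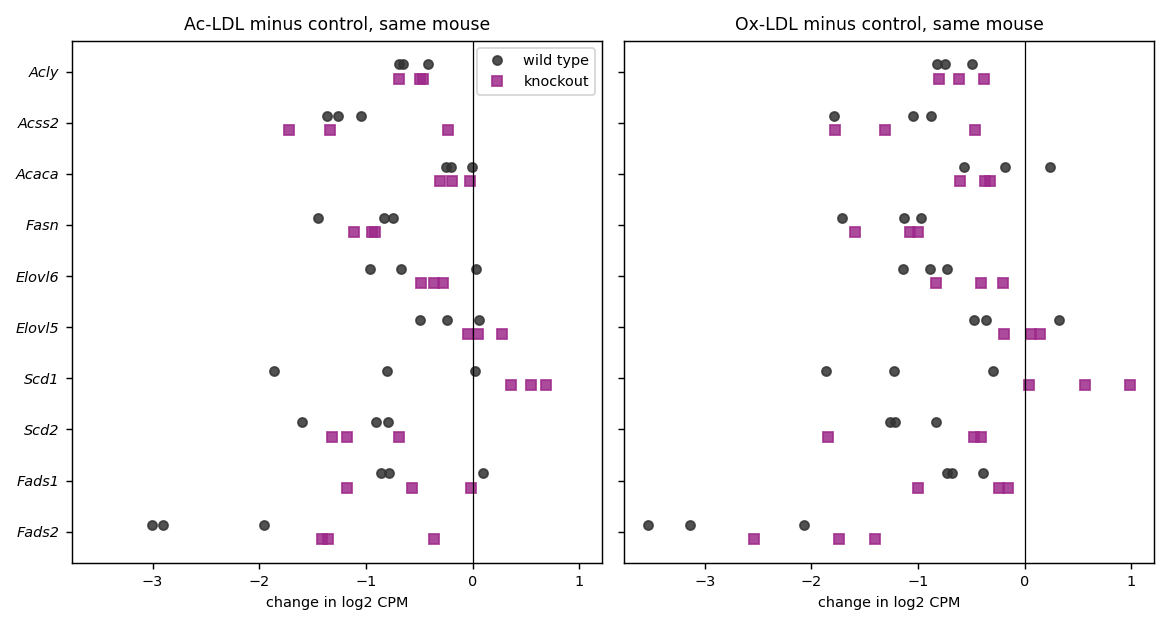
Change of each gene in log2 CPM (x axis, prior count of 2) from control to Ac-LDL (left) or Ox-LDL (right) within the same mouse, with 3 wild type (circles) and 3 knockout (squares) mice. All points of *Acly*, *Acss2*, *Fasn*, *Scd2* and *Fads2* are below 0, those of *Elovl5* lie on both sides, and those of *Scd1* with Ox-LDL are below 0 in wild type and above 0 in knockout mice.

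Within each enzyme family the members were compared in the same mouse, a comparison chosen after the values were seen, with a two-sided exact sign-flip permutation test over 6 mice whose smallest possible p is 0.03125 and with adjustment over the 6 tests. With Ox-LDL, *Fads2* fell more than *Fads1* in 6 of 6 mice, by 1.87 ± 0.900 on the log2 scale (SD), at an exact p = 0.03125 (adjusted p = 0.0625). With Ac-LDL the difference was −1.28 ± 1.31, lower in 5 of 6 mice (exact p = 0.0938, adjusted p = 0.113). *Elovl6* fell more than *Elovl5* in 6 of 6 mice, with a difference of −0.39 ± 0.280 with Ac-LDL and −0.61 ± 0.360 with Ox-LDL (exact p = 0.03125, adjusted p = 0.0625, for each). *Scd2* and *Scd1* differed by −0.91 ± 0.886 with Ac-LDL (5 of 6 mice, exact p = 0.0938, adjusted p = 0.113) and −0.71 ± 0.927 with Ox-LDL (4 of 6 mice, exact p = 0.188, adjusted p = 0.188). With 6 mice, none of the 6 tests passed after adjustment.

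No gene was called between Ox-LDL and Ac-LDL, which were given at different doses, so that preparation and dose cannot be told apart. Compared with each other, 0 of the 10 genes passed in wild type and 0 in knockout cells by edgeR, and 0 by DESeq2, against 0.00814% and 0.0651% of all genes. At an unadjusted p under 0.05 there were also 0 in each, against 5.14% and 5.55% of all genes. *Fasn* and *Elovl6* were lower with Ox-LDL than with Ac-LDL without overlap in wild type cells (4.44% of all genes were), at log2 differences of −0.27 (95% interval −0.68 to 0.14) and −0.42 (−1.19 to 0.35). The largest difference in knockout cells was that of *Fads2*, −0.93 (−2.23 to 0.38; adjusted p = 0.965). For *Acly* the intervals were −0.36 to 0.18 in wild type and −0.32 to 0.21 in knockout cells.

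Loss of *Slc7a7* did not move any of the 10 genes past the threshold. In each of the 3 media (control, Ac-LDL and Ox-LDL), 0 of 10 differed between genotypes by edgeR and 0 by DESeq2, against 0.00814%, 0.0163% and 0.00814% of all genes. At an unadjusted p under 0.05 the counts were 0, 1 and 0, against 4%, 4.89% and 4.78% of all genes. In control medium the log2 difference of knockout to wild type was −0.09 for *Acly* (95% interval −0.34 to 0.16; lower without overlap, as were 4.39% of all genes), 0.18 for *Fasn* (−0.16 to 0.52) and −0.64 for *Elovl6* (−1.30 to 0.03). With Ac-LDL, 3 genes were higher in knockout cells without overlap (5.66% of all genes were): *Fads2* by 1.57 (0.11 to 3.04; adjusted p = 0.990), *Elovl5* by 0.30 (−0.03 to 0.64; adjusted p = 0.990) and *Scd1* by 1.40 (−0.35 to 3.16; adjusted p = 0.990), in the edgeR fit.

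The response to LDL was likewise not called different between genotypes for any gene. The difference of the responses was tested as an interaction, and 0 of the 10 genes passed for either LDL by edgeR or DESeq2 (0% of all genes in each by edgeR). At an unadjusted p under 0.05 there was 1 gene for Ac-LDL, *Fads2*, and 0 for Ox-LDL, against 2.66% and 2.75% of all genes. *Fads2* fell less with Ac-LDL in knockout than in wild type cells by 1.87 (95% interval 0.15 to 3.58; adjusted p = 0.9999 in the edgeR fit), from 8 against 30 summed counts in the LDL groups. For *Scd1* the difference was 2.16 (−0.21 to 4.53; adjusted p = 0.9999) with Ac-LDL and 2.18 (−0.14 to 4.49; adjusted p = 0.99999) with Ox-LDL in the edgeR fit. The better-counted genes gave tighter bounds, since the interval of the difference was −0.33 to 0.41 with Ac-LDL and −0.29 to 0.45 with Ox-LDL for *Acly*, and −0.47 to 0.57 and −0.44 to 0.62 for *Fasn*. A p that misses the threshold does not show that the genotypes respond alike.

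**Figure D4:**
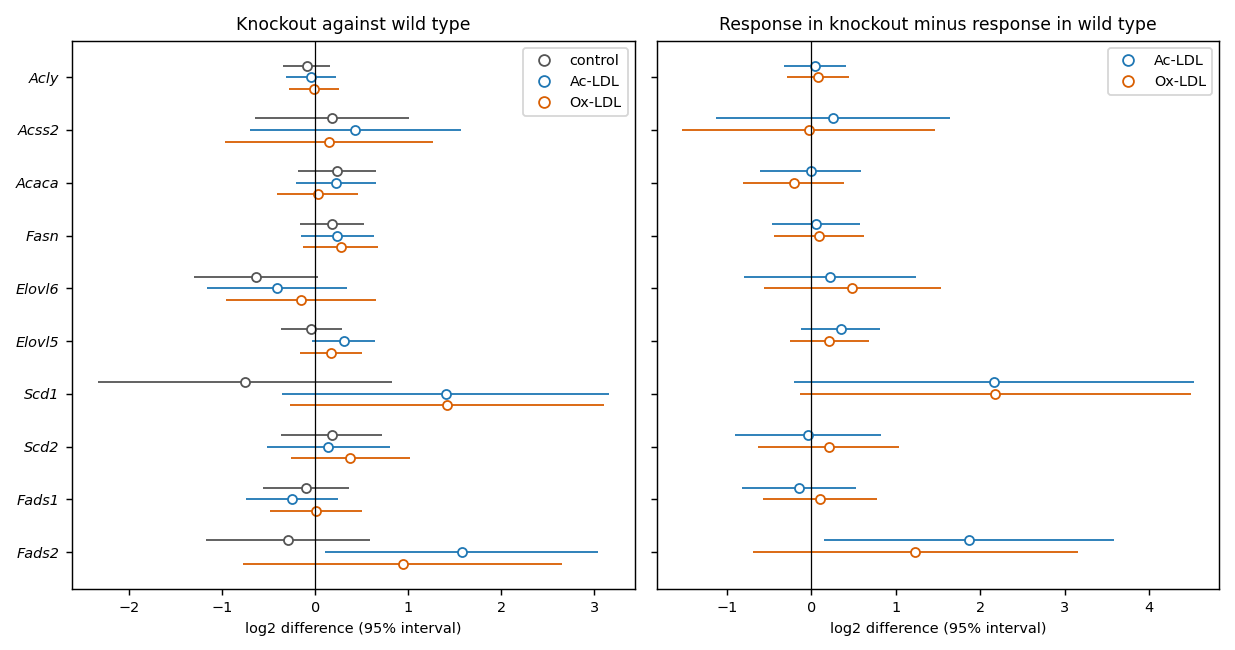
Log2 difference of knockout to wild type in each medium (left) and knockout response minus wild type response for each LDL (right), with 95% intervals; no symbol is filled, since none had an adjusted p under 0.05. The intervals of *Acly*, *Fasn* and *Elovl5* are narrow and include 0, and those of *Scd1* and *Fads2* are wide.

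Other genes of lipid metabolism were read from the same fit. Of 23 tested genes of chain synthesis and precursor supply outside the 10, none passed with Ac-LDL within a genotype (3 and 5 were lower and 0 and 1 higher at an unadjusted p under 0.05), and 1 fell with Ox-LDL in each genotype. These were *Slc25a1*, the mitochondrial citrate carrier upstream of *Acly*, in wild type cells (−1.23, SE 0.28, adjusted p = 0.0224) and *Mid1ip1*, a partner of acetyl-CoA carboxylase, in knockout cells (−0.86, SE 0.19, adjusted p = 0.0106). Averaged over genotypes both fell with each LDL, *Slc25a1* by 0.93 and 1.12 and *Mid1ip1* by 0.59 and 0.63 on the log2 scale for Ac-LDL and Ox-LDL, and *Tecr*, the last enzyme of the elongation cycle, fell by 0.57 with Ox-LDL (adjusted p = 0.0094). Of 22 tested genes of acyl-CoA and glycerolipid metabolism, 0 (Ac-LDL) and 2 (Ox-LDL) fell in wild type cells, and 1 and 2 in the knockout, namely *Acsl1*, an acyl-CoA synthetase, and *Lpcat2*, a lysophospholipid acyltransferase. Of 19 tested genes of fatty acid oxidation none passed in the 4 comparisons within a genotype, with medians between −0.11 and 0.08. At an unadjusted p under 0.05 between 0 and 5 were higher and between 0 and 2 lower. For LDL against control, the share of all genes at this unadjusted p is not given here.

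Genes of sterol synthesis fell with both LDL preparations. With Ac-LDL 15 of 21 passed in wild type and 13 in knockout cells, and with Ox-LDL 17 in each, all lower. Their median log2 fold changes were −1.73 and −1.92 in wild type and −1.45 and −1.98 in knockout cells, for Ac-LDL and Ox-LDL. Among them *Idi1*, an isomerase of the mevalonate pathway, changed by −2.65 and −3.14 in wild type and −1.83 and −3.36 in knockout cells. Of the 10 genes of fatty acid synthesis, *Fads2* changed by between −3.50 and −1.34, and for the other 9 the values lay between −1.51 and 0.86.

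Of the 15 tested regulators, *Srebf2*, which encodes SREBP-2, and *Insig1*, which retains SREBP in the endoplasmic reticulum and is itself an SREBP target, fell in all 4 comparisons. *Srebf2* changed by −1.81 and −1.62 in wild type and −1.20 and −1.498 in knockout cells, and *Insig1* by −1.89, −1.91, −1.37 and −2.11. *Nr1h3*, which encodes LXRα, fell with Ox-LDL by 0.88 in wild type (adjusted p = 0.0217) and by 0.88 in knockout cells (adjusted p = 0.0138). *Srebf1*, which encodes SREBP-1 and is named here after its values were seen, changed by −0.32, −0.40, −0.38 and −0.52, and passed only as the average over genotypes with Ox-LDL (−0.46, SE 0.13, adjusted p = 0.0306). Of 9 tested LXR targets outside the 10 genes, 4 rose with Ac-LDL in each genotype. With Ox-LDL 3 rose in wild type and 4 in knockout cells. Among all genes, 0.472% and 0.521% were called in either direction with Ac-LDL (wild type and knockout) and 1.34% and 2.32% with Ox-LDL. *Abcg1*, a sterol exporter, rose by 1.92 and 2.01 in wild type and 1.37 and 1.72 in knockout cells, and *Abca1*, another, by 2.02, 1.62, 1.43 and 1.59. SREBP-driven sterol genes and LXR targets thus moved in opposite directions, and the called genes of fatty acid synthesis moved down.

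**Figure D5:**
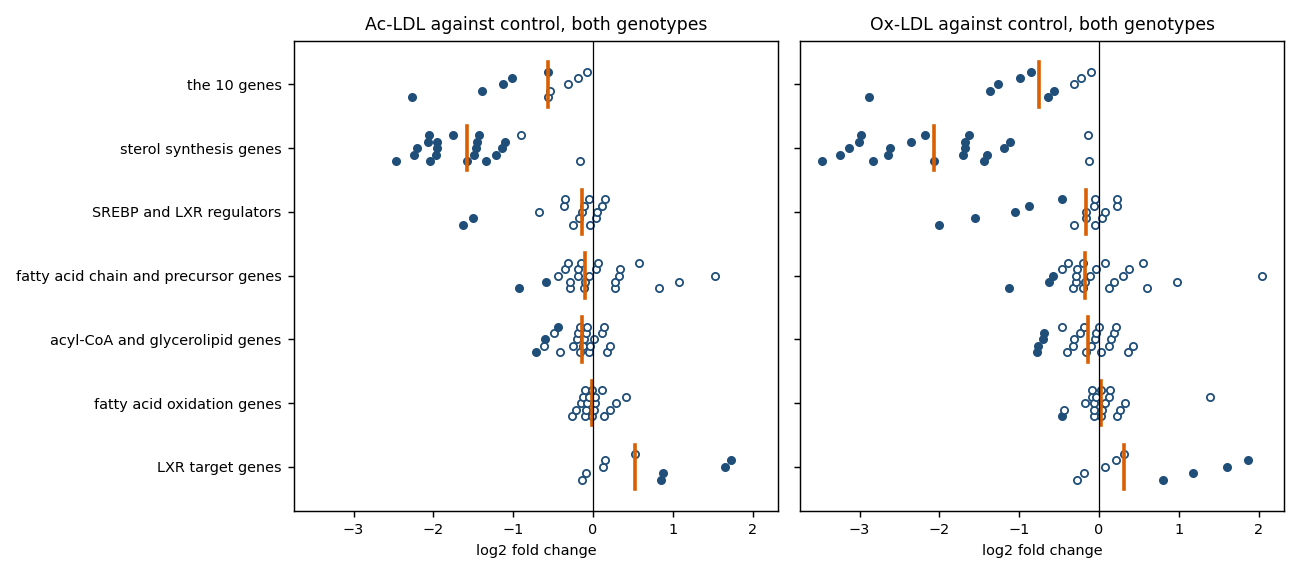
Log2 fold change (x axis) averaged over both genotypes for Ac-LDL (left) and Ox-LDL (right), 1 point per gene, for the 10 genes and 6 related lists; filled points have an adjusted p under 0.05 and the bar is the median of the list. Medians of the 10 genes (−0.56 and −0.75) lie between those of the sterol synthesis genes (−1.58 and −2.07) and those of the oxidation genes (−0.02 and 0.02).

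Over the 6 groups, the tested genes with a mean above 5 CPM (9830 candidates) whose centred group means of log2 CPM were nearest to those of *Fads2* were *Mvd*, *Msmo1* and *Cyp51* (root mean square difference 0.253, 0.302 and 0.303), all enzymes of sterol synthesis. Nearest to *Fasn* were *Ralgds* (0.0735), *Acss2* (0.0888) and *Ass1* (0.116). Nearest to *Acly* were *Pstpip2* (0.0534), *Fads1* (0.0647) and *Tnfrsf1b* (0.0684). These are descriptions over 6 groups that share their control libraries.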

How the data were processed

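RNA-Seq of BM-derived macrophages was analysed in 18 libraries, 6 groups of 3. Groups came from the sample labels, doses, times and ages from the study's methods. Stranded total RNA libraries were read single-end, trimmed with Trim Galore in the nf-core pipeline and aligned to mm10 with STAR, and the authors deposited gene-level estimated counts from Salmon without normalization. How strand was set in counting is not given in the sources used here. There were 0 columns of other samples.

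Counts were rounded, filtered with filterByExpr (minimum count 2, minimum total count 10) and fitted with edgeR 4.0.16 in R 4.3.3 (TMM, quasi-likelihood, 6 groups, no covariate). P-values were adjusted over 12290 genes. CPM used TMM-scaled library sizes, with a prior count of 2 added before taking log2. Scripts were tested on simulated data. DESeq2 1.42.0 and other settings were tried as alternatives. For pairs of replicates, chi-square divided by its degrees of freedom was 2.03 to 12.7, above counting noise. Treatments of a genotype are paired by the animal number in the sample descriptions, since the 3 libraries of a number come from 1 mouse. Deviations from the group mean correlated between libraries of a mouse by 0.0648 to 0.404 (median 0.237, above 0.1 in 17 of 18 pairs). Numbers do not pair animals across genotypes. P-values of the main fit measure the spread between libraries of a group, each from another mouse, and leave out the pairing by mouse. Those of the block fit for LDL and of the sign-flip test measure the spread of changes within mice.

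The 10 genes and all lists were chosen with earlier results of these data known. Named are the 10 genes, *Slc7a7*, and *Fabp4* as the only adipocyte marker tested. Also named are, of each list, at most the 3 called genes with the smallest p per comparison. The 3 nearest profiles of *Acly*, *Fasn* and *Fads2* are named as well. No list or set was tested. Motifs were searched in RefSeq promoters of GRCm38.p6, and positions come from GENCODE on GRCm38. An item is not reported here, and the lists were counted without it.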

Additional observations from a re-analysis of the deposited data

Results flagged for a closer look

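*Scd1* stood out because it went down with Ox-LDL in all 3 wild type mice (by −1.23, −0.30 and −1.86 in log2 CPM) and up in all 3 knockout mice (by 0.04, 0.57 and 0.99). The difference between the genotypes was 2.18 on the log2 scale (SE 1.12, adjusted p = 0.99999 in the edgeR fit), so it did not pass the test, and it rests on 0 to 9 counts per library.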

How the results depend on the processing

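Numbers of the 10 genes called were 3, 3, 2 and 3 with Ac-LDL and Ox-LDL in wild type and then in knockout cells, and 5 and 7 as the average. When only the libraries compared were fitted, wild type cells gave 1 with Ac-LDL (*Fads2*). Scaling by library size gave 1 with Ac-LDL in knockout cells (*Fasn*). With the mouse as a replicate block the numbers were 4, 4, 3 and 4, and 6 and 7, *Scd2* being added in each genotype and *Fads1* in the average with Ac-LDL, and no other call on these genes was changed by the block. Leaving out 1 library gave 2 in all fits and 3 to 4 in wild type cells, 1 to 2 and 1 to 3 in knockout cells, and 4 to 5 and 5 to 6 as the average. It gave 0 in all comparisons of genotypes, of both LDL preparations and of responses. Over all genes, the block raised the calls from 58 to 265 (Ac-LDL) and from 165 to 539 (Ox-LDL) in wild type cells. The sign of *Elovl5* with Ox-LDL in knockout cells turned without knockout control replicate 2 or 3 or Ox-LDL replicate 2 or 3, within a range of −0.026 to 0.070 on leaving out 1 library (−0.0063 and −0.013 among the negative values). The average of *Scd1* over genotypes then spanned −0.63 to 0.017 (Ac-LDL) and −2.26 to 0.067 (Ox-LDL), and was positive only without wild type Ac-LDL replicate 3 and wild type Ox-LDL replicate 3. Depth limits *Scd1*, *Acss2* and, with LDL, *Fads2*.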
